A study of Mus musculus with 6 samples.

Results

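The small leucine-rich proteoglycans described here are 10 genes, Dcn, Bgn, Lum, Fmod, Prelp, Ogn, Aspn, Omd, Podn and Ecm2, taken by name from the 56953 genes of the expression table. Their levels were measured by poly-A selected, bulk RNA sequencing in mouse embryonic fibroblasts (MEFs), connective tissue cells grown from mouse embryos and kept in medium with fetal bovine serum. One group was wild type (WT, 3 libraries) and the other came from Gαq/11 knockout MEFs, labelled GαqKO (3 libraries). The study calls the libraries of each group biological replicates, names no treatment and had the cells from another laboratory. How many embryos or clones lie behind each line is not given in the sources used here, so genotype and line cannot be told apart. Values are normalized counts, that is, reads per gene divided by 1 size factor per library, and differences are on the log2(normalized count + 1) scale.

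Small leucine-rich proteoglycans are secreted proteins with a curved core of leucine-rich repeats, and most of them carry chondroitin, dermatan or keratan sulphate chains. They coat collagen fibrils and help to set their thickness and spacing. Several also hold TGF-β family growth factors or bind receptors on the cell surface, and fibroblasts are a main source of them in connective tissue.

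The sums of normalized counts ran from 11392429 to 11483486 per library, and the 5 libraries whose reads could be recovered held 9853000 to 12229175 reads. Gnaq, which encodes Gαq, was not lower in the libraries labelled GαqKO. Its normalized counts were 1665.5, 1660.2 and 1746.6 in WT and 1959.7, 1930.9 and 1888.2 in GαqKO (log2 fold change 0.19, adjusted p = 0.00212). A gene total does not show the loss of single exons, so this value neither checks nor contradicts the label. Gna11, which encodes Gα11, fell from 2147.9 ± 29.0 to 451.6 ± 28.7 (SD, n = 3 each; log2 fold change -2.25, adjusted p = 9.16e-13). The 4 Y-linked genes measured summed to 2566.5 to 2800.1 in WT and were at 0 in every GαqKO library. Of 10 fibroblast markers 9 passed the filter on low values, while Fap was near 0 in both groups.

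The family's transcripts had a different make-up in the 2 lines. Of the 10 genes, Dcn (decorin) was higher in the libraries labelled GαqKO, Fmod (fibromodulin) and Podn (podocan) were lower, and Bgn (biglycan) did not pass the test. Lum (lumican) and Prelp lay at a few counts at most, and Ogn, Aspn, Omd and Ecm2 were listed at 0 in all 6 libraries. Genes entered the test if 3 or more libraries held at least 10 normalized counts. Of the 14096 genes that did, 10.2% were higher (log2 fold change over 1 and adjusted p under 0.05) and 10.5% lower (log2 fold change under -1), 20.7% in all. The 4 members that entered the test were 1 higher, 2 lower and 1 that did not pass. Fmod and Podn entered only through the WT libraries, where they are high, so that the count of lower members carries no weight of its own.

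**Figure D1:**
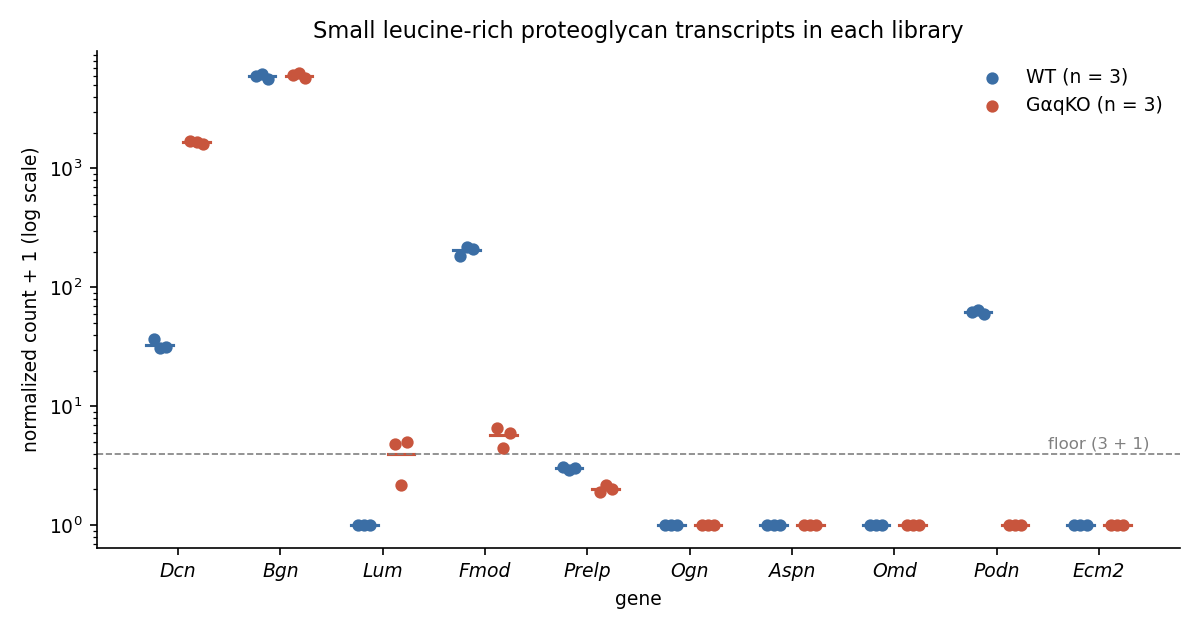
Normalized count + 1 (log axis) of the 10 genes in each of the 3 WT (blue) and 3 GαqKO (red) libraries, with bars at the group means and a dashed line at the floor of 3 counts. Dcn stands higher in GαqKO, Fmod and Podn stand higher in WT, and the Bgn points of both groups overlap.

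**Figure D2:**
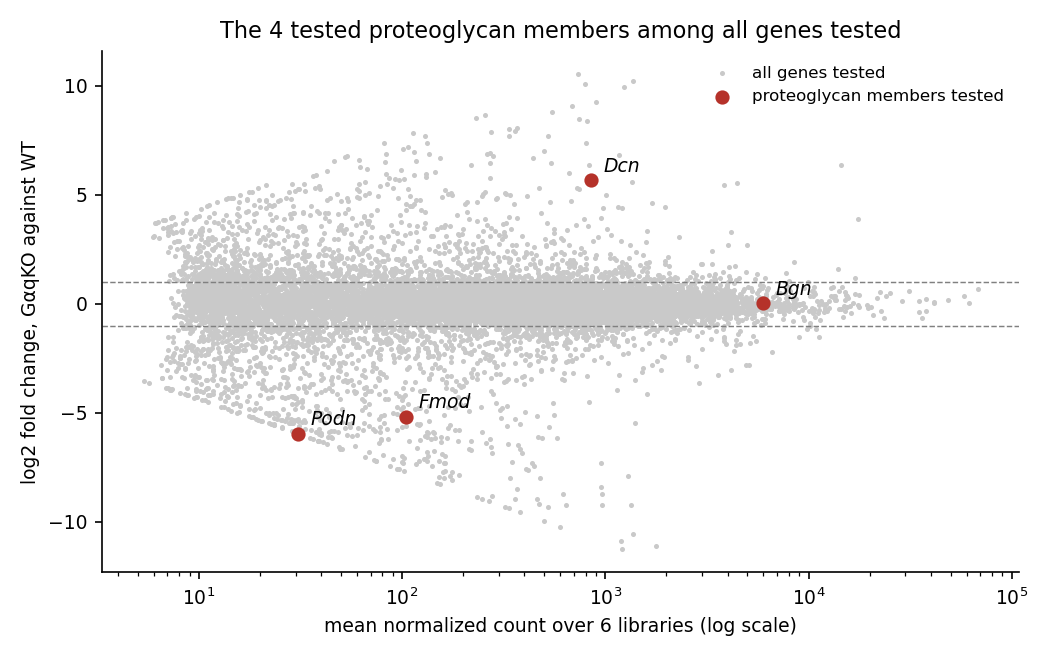
Log2 fold change of GαqKO against WT (y axis) by mean normalized count (log x axis) for the 14096 genes tested (grey), with the 4 proteoglycan genes tested in red and dashed lines at log2 fold changes of -1 and 1. Dcn (5.66) lies far above the main cloud of genes, Fmod (-5.18) and Podn (-5.97) far below it, and Bgn (0.02) among the abundant genes near 0.

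Decorin and biglycan are close relatives in the family, both carrying chondroitin or dermatan sulphate. Dcn (ENSMUSG00000019929.18, GRCm39 chr10:97315275-97358155, forward strand) had 35.5, 30.1 and 30.5 normalized counts in WT and 1710, 1674.2 and 1604.2 in GαqKO. Every GαqKO library lay far above every WT library, and within each group the values were close together. The group means were 32.1 ± 3.0 in WT and 1662.8 ± 53.8 in GαqKO (SD, n = 3 each), a ratio of 51.9. The log2 fold change was 5.66 (SE 0.098, 95% confidence interval 5.45 to 5.87, adjusted p = 2.14e-14), the 63rd highest of all genes tested.

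Bgn (ENSMUSG00000031375.20, chrX:72527208-72539541, forward strand) was the most abundant member in both lines. It had 6009.3, 6216.1 and 5660.3 normalized counts in WT and 6059.5, 6306.1 and 5727 in GαqKO. The groups overlapped over nearly their whole range. The means were 5961.9 ± 281.0 and 6030.9 ± 290.6 (SD, n = 3 each), and the log2 fold change of 0.02 had a 95% confidence interval of -0.09 to 0.12 (SE 0.048, adjusted p = 0.778). Bgn lies on the X chromosome, and Xist, the RNA of the inactive X chromosome, was listed at 0 in all 6 libraries, with all of its exon bases inside the spans of other genes.

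Counts of Bgn thus exceeded those of Dcn by very different margins. The ratio of Bgn to Dcn counts was 169, 206 and 185 in the WT libraries and 3.54, 3.77 and 3.57 in the GαqKO libraries. Per kilobase of merged exons, the scale on which genes can be compared, Bgn stood at 882.9 ± 41.6 in WT and 893.1 ± 43.0 in GαqKO. On that scale Dcn stood at 2.46 ± 0.23 in WT, the lowest of the 4 members tested, and at 127.6 ± 4.13 in GαqKO, below Bgn only (SD, n = 3). The order per kilobase was Bgn, Fmod, Podn and Dcn in WT and Bgn, Dcn and Fmod in GαqKO, and no neighbours in these orders came within 1 SD of each other. Per kilobase of the canonical transcript, Bgn ranked 113th in WT and 111th in GαqKO among the 17118 protein-coding genes above 0, whereas Dcn ranked 11094th and 3084th.

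Summed, the 10 genes gave 6260.9 ± 285.8 normalized counts in WT and 7702.4 ± 329.3 in GαqKO (SD, n = 3). The sum ran from 5961.5 to 6530.9 in WT and from 7341.3 to 7986.1 in GαqKO, with no overlap. Bgn made up 95.2% ± 0.296 of it in WT and 78.3% ± 0.589 in GαqKO, and Dcn made up 0.513% ± 0.0517 and 21.6% ± 0.553. Fmod contributed 3.25% ± 0.325 in WT and 0.0615% ± 0.0157 in GαqKO. These shares are of counts not divided by gene length, and Ogn, Aspn, Omd and Ecm2 enter the sum at 0 as listed. In bulk RNA, fewer cells that make a transcript and less of it per cell cannot be told apart.

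**Figure D3:**
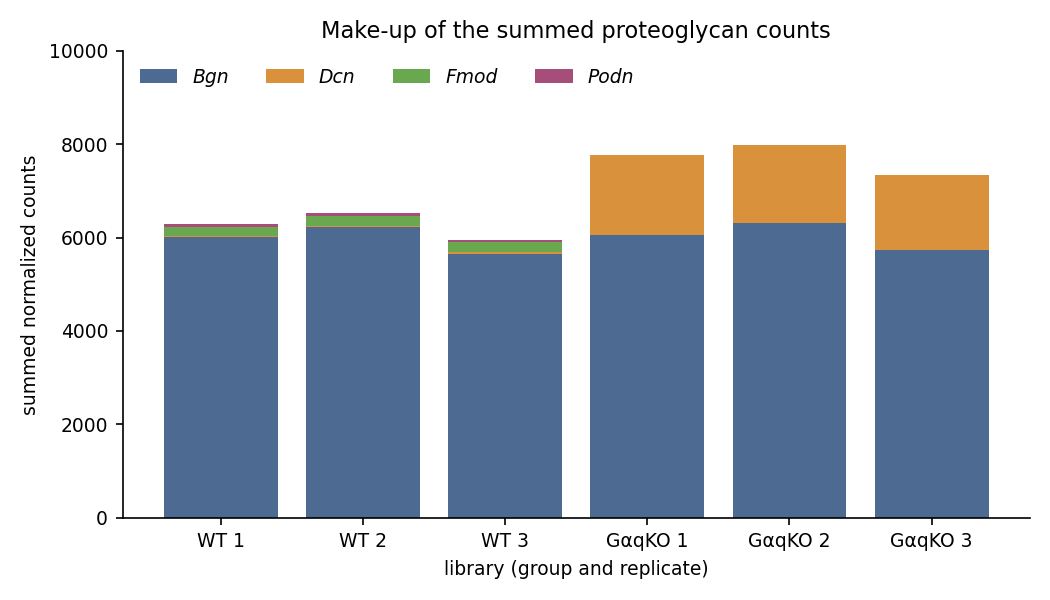
Summed normalized counts of the proteoglycan genes in each library (bars from 0), split into Bgn, Dcn, Fmod and Podn. Dcn fills 21.0% to 22.0% of the GαqKO bars and under 1% of the WT bars, while the Bgn segment has nearly the same height in all 6 libraries.

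Fibromodulin, lumican, PRELP and osteomodulin (Omd) form the second class of the family, and most of them carry keratan sulphate or sulphated tyrosines. Fmod (ENSMUSG00000041559.9, chr1:133964992-133976015, forward strand) encodes a collagen-binding protein that steers fibril growth. It had 181.7, 218.6 and 209.7 normalized counts in WT and 5.6, 3.5 and 5 in GαqKO. The lowest WT library was far above the highest GαqKO library, which held only a few reads. The means of 203.3 ± 19.2 and 4.71 ± 1.12 (SD, n = 3 each) differ 43.1-fold, with a log2 fold change of -5.18 (SE 0.242, 95% confidence interval -5.70 to -4.65, adjusted p = 3.56e-10).

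Lum (ENSMUSG00000036446.7, chr10:97400990-97408577, forward strand) starts 42.8 kb after the end of Dcn on the same strand. It was at 0 in all 3 WT libraries and had 3.8, 1.2 and 4 normalized counts in GαqKO. The first and second of these rest on 4 reads and 1 read, close to the floor of 3 counts, so Lum did not enter the test and no fold is given. Without the filter on low values it was called higher (adjusted p = 0.00986 among 26091 genes). In the same libraries its neighbour Dcn had 1604.2 to 1710 normalized counts, and Dcn per kilobase of merged exons was 127.6 against 0.464 for Lum.

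Prelp (ENSMUSG00000041577.7, chr1:133837335-133857971, reverse strand) encodes a protein that links basement membranes to connective tissue, and lies 107 kb before Fmod. It had 2.1, 1.9 and 2 normalized counts in WT and 0.9, 1.2 and 1 in GαqKO, under the floor in every library. Of its exon bases, 58.3% lie inside the span of Gm15851 on the other strand.

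Podocan belongs to a separate class of the family. Podn (ENSMUSG00000028600.18, chr4:107871988-107889534, reverse strand) had 61.6, 64.1 and 59 normalized counts in WT and was at 0 in all 3 GαqKO libraries. The mean in WT was 61.6 ± 2.54 (SD, n = 3), so that Podn was at least 20.5-fold lower in GαqKO against the floor of 3 normalized counts per library (adjusted p = 1.38e-08). Its fitted log2 fold change of -5.97 was -6.96 with a pseudocount of 0.5 and -3.73 with one of 5, and edgeR on the recovered reads of 5 libraries gave -8.91, so it is not a measure of size.

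The promoters of 3 members are shown because Bgn was abundant in both lines whereas Fmod and Podn were low in GαqKO. Each runs from 250 bases before to 50 bases after a RefSeq start (table of GRCm38.p6, placed on GRCm39 by exact match), 5′ to 3′ on the strand of the gene. Capitals mark matches, on either strand, to the core promoter element TATAAA, the NF-Y element CCAAT, the GC box of Sp factors (GGGCGG), the AP-1 element TGANTCA, the TEAD element GGAATG or the E-box CACGTG.
Bgn, chrX:72526957-72527256, forward strand: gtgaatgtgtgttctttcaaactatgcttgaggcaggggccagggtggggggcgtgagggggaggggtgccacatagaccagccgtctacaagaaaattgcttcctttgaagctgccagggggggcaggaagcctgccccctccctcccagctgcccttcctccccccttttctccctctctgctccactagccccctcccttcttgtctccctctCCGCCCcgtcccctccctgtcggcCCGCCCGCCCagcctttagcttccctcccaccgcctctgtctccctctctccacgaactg
Fmod, chr1:133964742-133965041, forward strand: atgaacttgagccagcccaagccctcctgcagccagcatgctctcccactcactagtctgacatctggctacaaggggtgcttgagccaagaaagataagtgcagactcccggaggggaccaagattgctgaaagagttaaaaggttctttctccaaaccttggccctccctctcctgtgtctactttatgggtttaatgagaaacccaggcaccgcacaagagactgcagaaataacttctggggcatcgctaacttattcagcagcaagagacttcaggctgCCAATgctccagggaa
Podn, chr4:107889102-107889401, reverse strand: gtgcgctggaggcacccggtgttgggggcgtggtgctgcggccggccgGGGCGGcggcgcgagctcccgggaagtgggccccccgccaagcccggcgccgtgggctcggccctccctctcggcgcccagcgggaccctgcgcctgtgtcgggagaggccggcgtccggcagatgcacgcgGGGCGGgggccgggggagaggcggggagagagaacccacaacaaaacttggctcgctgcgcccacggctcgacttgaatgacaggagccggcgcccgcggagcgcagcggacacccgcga
The Bgn window has a GC content of 63.7%, 9 CpG dinucleotides and 3 GC box matches, of which the last pair overlap. The Fmod window has a GC content of 51.0%, 3 CpG dinucleotides and a CCAAT match after the start. The Podn window has a GC content of 77.0%, 41 CpG dinucleotides, more than in 96.5% of all windows, and 2 GC box matches. These windows of Fmod and Podn, both low in GαqKO, thus differ widely in CpG content, the median being 7 in 32544 distinct windows of the same length. That holds for the Podn window shown only. GC box matches are in 35.9% of those windows, CCAAT in 37.4%, the TEAD site in 14.6%, TATAAA in 13.6%, the AP-1 site in 7.8% and the E-box in 7.2%. Another Podn window, chr4:107888134-107888433, held none of these letters and had 7 CpG dinucleotides, the same as the median, with a GC content of 63.0%. Windows were found for 8 of the 10 members, Dcn and Lum being the other two.

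Osteoglycin (Ogn), asporin (Aspn), osteomodulin (Omd) and Ecm2 are neighbours on chromosome 13, where they lie in a row on the forward strand. Ecm2 spans chr13:49658236-49687964, Aspn chr13:49697609-49721057, Omd chr13:49735938-49746298 and Ogn chr13:49761349-49780412. Asporin is known from cartilage, tendon and the tissue that holds the teeth, osteomodulin from bone, osteoglycin from many connective tissues, and Ecm2 is a matrix protein with related repeats. All 4 genes were listed at 0 in all 6 libraries, and no fold or test can be given.

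All of the exon bases of these 4 genes lie inside the span of Cenpp, a kinetochore gene on the reverse strand (chr13:49617492-49806396). Cenpp itself had 122.8 ± 11.8 normalized counts in WT and 137.6 ± 14.1 in GαqKO (SD, n = 3 each; log2 fold change 0.16, adjusted p = 0.302). Over the whole table, 72.2% of the 898 protein-coding genes lying wholly inside spans on the opposite strand were listed at 0, against 25.2% of the 11516 whose exons lie outside other spans. How the counting treated reads in such places is not given in the sources used here, and its part in the zeros was not tested. A value of 0 for Ogn, Aspn, Omd and Ecm2 is therefore reported as listed, not as absence of the RNA. For Dcn, Bgn, Lum, Fmod and Podn, none of the exon bases lie inside the span of another gene.

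**Figure D4:**
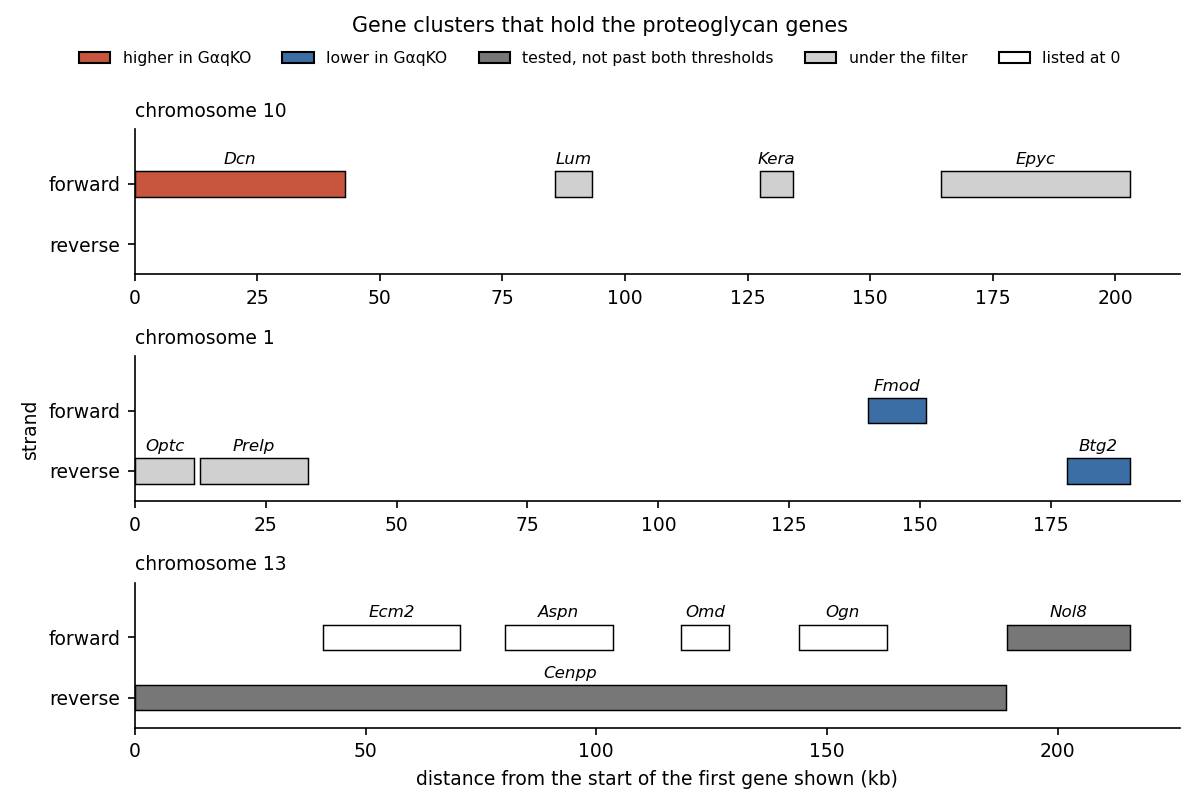
Gene clusters holding 8 of the 10 proteoglycan genes, by strand, as distance in kb from the start of the first gene shown. Red, higher in GαqKO; blue, lower; dark grey, tested but not past both thresholds; light grey, under the filter; white, listed at 0, as are the 4 genes inside the span of Cenpp.

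The genes beside the members were read in the same libraries. Btg2, an antiproliferative gene 26.9 kb after Fmod, fell as Fmod did, from 344.6 ± 11.6 to 55.7 ± 7.18 normalized counts (log2 fold change -2.62, adjusted p = 6.43e-10). Optc, the family member 1.1 kb before Prelp, had 4.2, 2.9 and 2 normalized counts in WT and 0 in every GαqKO library. Kera, 84.6 kb after Dcn, had a single normalized count in 1 GαqKO library and 0 elsewhere, with all of its exon bases inside the span of a long gene. Haus7, 24.6 kb before Bgn, had a log2 fold change of -0.54 (adjusted p = 7.23e-05), under the fold threshold. Also under it were Nol8, 26.1 kb after Ogn (log2 fold change 0.42, adjusted p = 0.000121), and Btg1, 856.6 kb before Dcn (log2 fold change 0.30, adjusted p = 0.000211). Atp2b3 after Bgn, Slc1a7 and Scp2 on either side of Podn, Gm15851 over Prelp and the pseudogene Tes3-ps before Ecm2 stayed below the filter.

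Among 8 further genes of the family or its close relatives, 3 passed the filter, and 1 fell past both thresholds, where 10.5% of all genes tested fell. Chadl, a chondroadherin-like protein that binds collagen, had 18.8, 20.4 and 32.6 normalized counts in WT and 0, 4.6 and 1 in GαqKO (log2 fold change -3.43, SE 0.585, adjusted p = 1.52e-04). The groups did not overlap, but the counts were low, and Chadl entered the test only through the WT libraries. Podnl1, the closest relative of podocan, had 755.3 ± 11.3 normalized counts in WT and 624.6 ± 12.4 in GαqKO, a log2 fold change of only -0.27 (adjusted p = 6.48e-04), whereas Podn was at 0 in GαqKO. Tsku, a secreted inhibitor of several growth factors, did not pass (596.2 ± 33.4 and 552.2 ± 31.6, log2 fold change -0.11, adjusted p = 0.174). Kera, Epyc, Optc, Chad and Nyx stayed below the filter.

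Decorin and biglycan cores need a chain-building pathway, which starts with a xylose on the core protein and goes on with the linker, the repeating disaccharides and their sulphate groups. Of 22 genes of this pathway 19 were tested, and 2 rose and 2 fell past both thresholds, with a median log2 fold change of 0.11 against -0.012 over all genes tested. These counts lie near the shares of all genes tested, 10.2% higher and 10.5% lower. The 2 genes that rose, Xylt1 and Csgalnact1, act at the start of the chain. Xylt1 entered the test only through the GαqKO libraries, so its part of this count carries no weight of its own. Xylt1, a xylosyltransferase that adds the first sugar, had 11.5, 6.8 and 9.2 normalized counts in WT and 112.7, 92.5 and 77.5 in GαqKO (log2 fold change 3.24, SE 0.267, adjusted p = 1.25e-07). Xylt2, the other xylosyltransferase and the more abundant one in both lines, had 723.4 ± 54.2 and 605.9 ± 46.8 (log2 fold change -0.26, adjusted p = 0.00775). Csgalnact1, which starts the chondroitin chain on the linker, rose from 128.9 ± 12.7 to 442.7 ± 33.7 (log2 fold change 1.77, adjusted p = 3.57e-09).

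The genes of this pathway that fell are both sulphotransferases. Chst11, which puts sulphate on the 4 position of chondroitin, fell from 642.6 ± 15.1 to 294.0 ± 38.1 normalized counts (log2 fold change -1.13, adjusted p = 7.15e-08). Chst7, a chondroitin 6-sulphotransferase, fell from 83.6 ± 14.8 to 35.6 ± 9.78 (log2 fold change -1.23, adjusted p = 3.59e-04). Of the genes that act on dermatan, the epimerases Dse and Dsel had log2 fold changes of -0.37 (adjusted p = 4.6e-05) and 0.44 (adjusted p = 0.00117). The sulphotransferases Chst14 and Ust had log2 fold changes of 0.50 (adjusted p = 1.12e-05) and 0.72 (adjusted p = 6.05e-05). These 4 genes, all under the fold threshold, were named after their values were seen. At an adjusted p under 0.05 with any fold change, 8 of the 19 were higher and 5 lower, where 31.8% and 34.1% of all genes tested were, 65.8% in all.

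Keratan sulphate, the chain of fibromodulin and lumican, is made by a different set of enzymes. Of 7 genes 5 were tested, of which 4 fell past both thresholds and 0 rose, where 10.5% of all genes tested fell, and the median log2 fold change was -2.35. Chst1 and B4galt4, like Fmod and Podn, entered the test only through the WT libraries, so their part of this count carries no weight of its own. Chst1, the sulphotransferase that acts on the galactose of keratan sulphate, had 268.4, 295.3 and 300.3 normalized counts in WT and 3.8, 2.3 and 3 in GαqKO (log2 fold change -6.18, SE 0.236, adjusted p = 4.32e-11). Like Fmod, it was near the floor in every GαqKO library, so the size of its log2 fold change depends on the count of 1 added. B4galt4, a galactosyltransferase that extends the chain, fell from 314.8 ± 29.9 to 8.63 ± 4.22 (log2 fold change -5.13, adjusted p = 1.66e-09). Chst2, a sulphotransferase for N-acetylglucosamine, fell from 448.5 ± 46.4 to 87.8 ± 17.2 (log2 fold change -2.35, adjusted p = 4.97e-09).

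B4galt1, which also galactosylates many other glycans, fell from 2138.1 ± 34 to 1038.4 ± 64.4 (log2 fold change -1.04, adjusted p = 8.1e-10), close to the fold threshold. B3gnt2, the remaining gene tested, did not pass (log2 fold change -0.13, adjusted p = 0.74), and 90.8% of its exon bases lie inside other spans. With at least 10 normalized counts demanded in every library, Chst1 and B4galt4 left the test and the count of keratan genes that fell was 2.

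Most transcripts of the collagen chains that these proteoglycans bind were lower in GαqKO. These are RNA levels, a different measure from deposited protein. By staining, the study saw far more collagen I fibres laid down by GαqKO MEFs than by WT MEFs. All 12 chains of fibrils and beaded filaments were tested, and 6 fell past both thresholds and 0 rose, where 10.5% of all genes tested fell, with a median log2 fold change of -1.23. At an adjusted p under 0.05 with any fold change 11 were lower, where 34.1% of all genes tested were. Col11a1 entered only through the WT libraries. Col11a1, a chain of the thin fibrils with type XI collagen, had 429.2, 394.4 and 481.4 normalized counts in WT and 2.8, 3.5 and 3 in GαqKO (log2 fold change -6.73, SE 0.207, adjusted p = 5.44e-12). Its GαqKO values lie near the floor, so the size of this log2 fold change depends on the count of 1 added. Col6a3, a chain of the beaded filaments to which biglycan and decorin bind, fell from 1122.5 ± 173.0 to 102.2 ± 7.07 (log2 fold change -3.44, adjusted p = 5.05e-12).

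Of the type V collagen chains, which set fibril thickness together with decorin and fibromodulin, Col5a3 had a log2 fold change of -2.20 (adjusted p = 4.14e-06) and Col5a2 one of -1.68 (adjusted p = 2.41e-12). Col14a1, a fibril-associated collagen, was the chain that did not pass (17.3 ± 4.94 and 14.9 ± 3.21 normalized counts, log2 fold change -0.18, adjusted p = 0.652). Dcn was higher in the libraries in which the transcripts of 11 of these 12 collagen chains were lower, while Bgn did not pass the test.

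Proteases trim the proteoglycans or cut them in the matrix. Of 13 genes for proteases and their enhancers 9 were tested, and 1 rose and 3 fell past both thresholds, with a median log2 fold change of -0.88. Of all genes tested, 10.2% rose and 10.5% fell past them. Adamts1, a protease of proteoglycans, rose from 537.4 ± 12.2 to 1182.5 ± 22.7 normalized counts (log2 fold change 1.14, adjusted p = 3.7e-10). Its relatives moved the other way: Adamts4 fell from 179.4 ± 13.9 to 33.4 ± 9.17 (log2 fold change -2.42, adjusted p = 9.33e-08) and Adamts5 from 715.5 ± 60.3 to 223.1 ± 11.2 (log2 fold change -1.67, adjusted p = 5.08e-10). Mmp13, a collagenase that also cuts fibromodulin, had 61.6, 35.9 and 31.6 normalized counts in WT and 0, 2.3 and 5 in GαqKO (log2 fold change -3.96, adjusted p = 3.36e-05). Mmp13 entered the test only through the WT libraries, so its part of the count of 3 carries no weight of its own. Its GαqKO values lie near the floor, and the size of its log2 fold change depends on the count of 1 added. With at least 10 normalized counts demanded in every library, 2 protease genes fell.

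Mmp3, at 2.4 ± 2.13 normalized counts in WT and 11.2 ± 1.92 in GαqKO, narrowly missed the filter. It raised the count of genes that rose to 2 with no filter, and when WT replicate 1, 2 or 3 or GαqKO replicate 2 was left out and the filter asked for 2 libraries in place of 3.

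Of 16 growth factors and receptors known to bind these proteoglycans 14 were tested, and 1 rose and 4 fell past both thresholds, with a median log2 fold change of -0.24. Past the same thresholds, 10.2% of all genes tested rose and 10.5% fell. Tgfbr2, a receptor of TGF-β, rose from 1081.9 ± 26.0 to 2408.8 ± 103.8 normalized counts (log2 fold change 1.15, adjusted p = 1.14e-10). Ccn4, a matricellular protein that binds decorin and biglycan, had 5323.3, 5520.6 and 5253.1 normalized counts in WT and 444.2, 438.2 and 394.8 in GαqKO (log2 fold change -3.65, SE 0.054, adjusted p = 7.03e-15). The other genes that fell encode ligands, namely Tgfb2 (log2 fold change -3.32, adjusted p = 1.99e-10), Bmp4 (-1.86, adjusted p = 3.05e-09) and Tgfb3 (-1.45, adjusted p = 1.22e-09). Of the exon bases of these 3 genes, 71.5%, 62.9% and 70.3% lie inside the spans of other genes, and without genes whose exon bases mostly do so, Ccn4 was the 1 gene that fell among 10 tested.

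**Figure D5:**
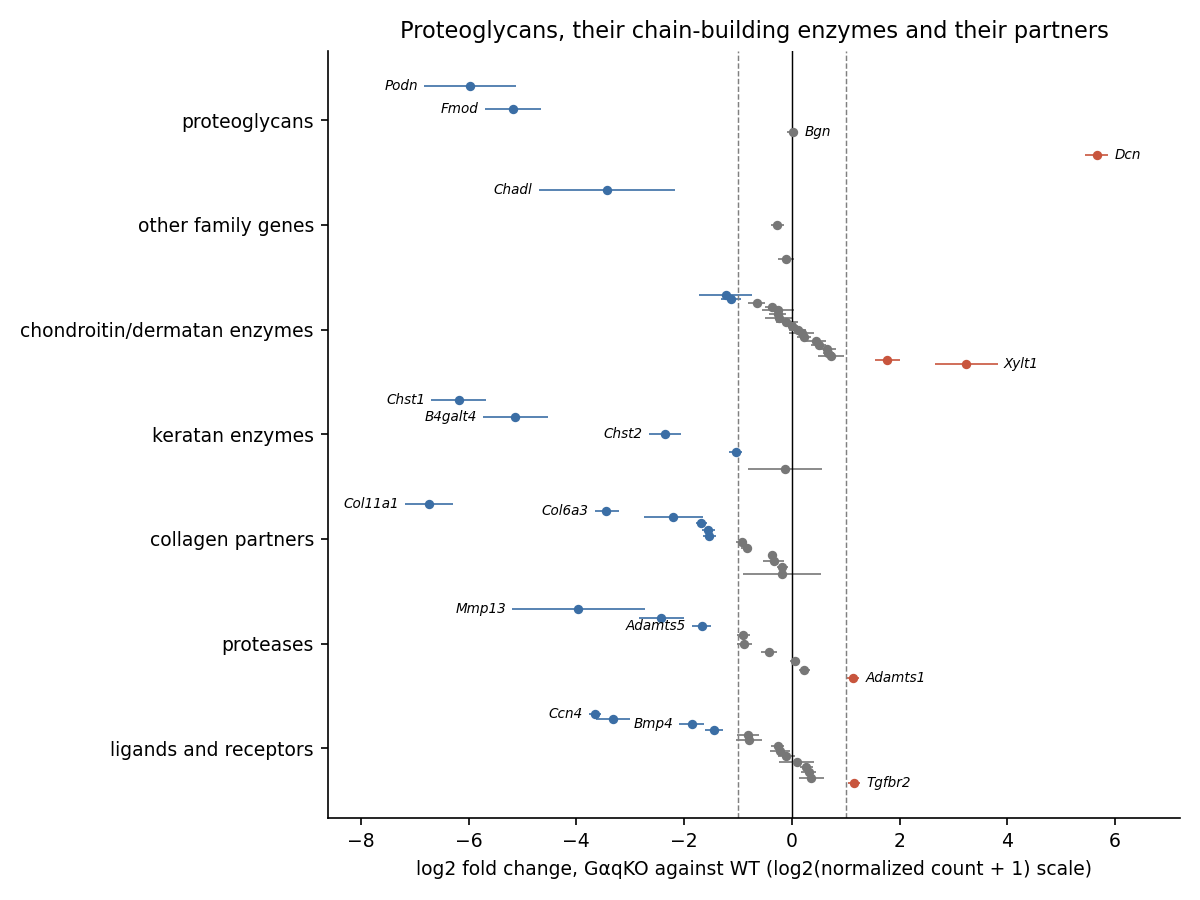
Log2 fold change of GαqKO against WT with its 95% confidence interval for every tested gene of the proteoglycans and of 6 related lists, in red where higher and in blue where lower past both thresholds and in grey otherwise, with dashed lines at -1 and 1. Points of the keratan enzymes and collagen partners lie left of 0, those of the chondroitin and dermatan enzymes on both sides of it, and the Podn point moves with the pseudocount.

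Markers of other cell types were read in the same libraries. The 7 epithelial markers summed to 515.0 to 544.0 normalized counts in WT and 10.1 to 23.1 in GαqKO. They thus stood higher where Fmod and Podn did, and 2 of 2 tested fell, where 10.5% of all genes tested fell. These were Cdh1 (238.2 ± 3.06 and 7.96 ± 2.72, log2 fold change -4.79, adjusted p = 8.62e-10) and Krt14 (258.0 ± 3.97 and 1.11 ± 1.16, adjusted p = 1.48e-09), while Epcam and Krt5 were near or at 0 in every library. Cdh1 and Krt14 entered the test only through the WT libraries, so that the count of 2 carries no weight of its own. Of the fibroblast markers, Pdgfra rose with Dcn, from 19.6 ± 2.23 to 2319.7 ± 42.0 (log2 fold change 6.82, adjusted p = 8.44e-15), and Thy1 from 2.1, 0 and 0 to 59.2, 59 and 76.5 (adjusted p = 2.2e-07). The 10 fibroblast markers summed to 84376 to 90132.2 in WT and 61318.1 to 64521.6 in GαqKO. Of these, 3 rose, S100a4 being the third (log2 fold change 1.61, adjusted p = 1.47e-08, with 82.2% of its exon bases inside another span), and Col1a1 fell past both thresholds (log2 fold change -1.53, adjusted p = 2.11e-11). Of all genes tested, 10.2% rose and 10.5% fell, and Thy1 entered only through the GαqKO libraries. At an adjusted p under 0.05 with any fold change 4 of the fibroblast markers were higher and 5 lower, where 31.8% and 34.1% of all genes tested were. The lower ones included Fn1 (log2 fold change -0.73), Col1a2 (-0.36), Vim (-0.32) and Col3a1 (-0.18).

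The 12 cartilage and bone markers summed to 3324.2 to 3564.9 in WT and 4339.2 to 4416.8 in GαqKO, with Acan, Col2a1 and Sp7 near 0 in both lines. Most of that difference was Sox9 (1602.1 ± 97.3 and 2463.9 ± 35.5, log2 fold change 0.62, under the fold threshold), while Runx2 (1730.9 ± 115.1 and 1771.9 ± 40.7) and Sox5 did not pass. All of the exon bases of Sox9 lie inside the span of another gene. The 8 muscle markers summed to 711.1 to 869.4 and 276.3 to 318.2, with Myod1 and Myog at or near 0, and the 5 tendon markers to 3200.4 to 3306.7 and 1488.4 to 1534.3, with Scx, Tnmd and Thbs4 listed at 0. All of the exon bases of Scx lie inside the span of another gene, so its 0 is not read as absence of the RNA. Acta2 (log2 fold change -1.42) and Tagln (-2.53, with 81.5% of its exon bases inside other spans) were the muscle markers that fell. Tagln entered the test only through the WT libraries. The tendon sum is nearly all Egr1, which is also an immediate early gene (3126.6 ± 60.2 and 1373.3 ± 29.3, log2 fold change -1.19), and Mkx did not pass (132.2 ± 12.1 and 132.4 ± 5.74). The 6 endothelial markers summed to at most 26.6 and the 6 blood cell markers to at most 115.0 in any library. The part of these differences between the lines in the levels of Dcn, Fmod and Podn was not tested.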

How the data were processed

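RNA of 3 WT and 3 GαqKO MEF libraries was sequenced by the authors as 150 bp paired-end reads after poly-A selection, with a stranded kit per the labels. The authors used Rbowtie2 for alignment (GRCm39), featureCounts with GENCODE release 32 for gene counts, and DESeq2. Versions, strand setting, the treatment of overlapping genes and any filter are not given in the sources used here. The deposited values are a signal, gene counts divided by 1 size factor per library. Whole reads were recovered in 5 libraries (100% of values whole within 0.01), but not for GαqKO replicate 3, so edgeR and DESeq2 were run on 5 libraries as alternatives.

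The members and all gene lists were chosen with earlier results of these data known. Names and coordinates are those of GENCODE release 39 on GRCm39, which matched 56310 of 56953 identifiers (98.9%). The main test was limma 3.58.1 (R 4.3.3) with a trend in the prior spread on log2(normalized count + 1) over the 14096 genes that reached 10 normalized counts in 3 or more libraries, with p-values adjusted over all of them (Benjamini-Hochberg) and no covariate. The thresholds of the study were used, a log2 fold change beyond 1 or -1 together with an adjusted p under 0.05. Lists are described by counts and medians, with no set test. Where a group was at 0, folds were computed against a floor of 3 normalized counts per library, which covers counting error only. Pairs of libraries within a group, where reads were recovered, differed by more than counting noise. Chi-square per gene was 2.44, 5.5 and 3.91 in the WT pairs and 2.44 in the only GαqKO pair. The p-values measure the spread between these cultures. Genes named are all members, their neighbours and, per list, at most the 4 largest changes past both thresholds in each direction, or every tested gene where at most 3 were tested. Xylt2, B3gnt2, Col14a1, Mmp3 and the markers and family genes under the fold threshold or the filter, besides the genes said so in the text, were chosen after their values were seen. No protein sequences are given. On simulated data limma recovered 101 of 101 genes changed 2-fold and 99 of 99 changed 4-fold among 13965, with 14 false calls. These changes were planted only in genes well above the filter, with the same spread for all genes and equal depths. The recovery therefore does not cover genes near the floor, nor data in which most genes differ. Alternatives used TMM scaling, other filters and pseudocounts (0.5 and 5), no trend, limma's treat, a replicate block, edgeR 4.0.16, DESeq2 1.42.0, and each library left out in turn. Promoter motifs were searched in Python 3.11.15.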

Additional observations from a re-analysis of the deposited data

How the results depend on the processing

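Dcn kept its call in 16 of 16 alternatives (log2 fold change 5.49 to 5.73), Fmod in 15 of 15 (-5.44 to -4.43) and Podn in 15 of 15 (-8.91 to -3.73), and Bgn did not pass in any of 16 (-0.02 to 0.07, adjusted p 0.299 to 0.863). Among these, limma without GαqKO replicate 3 and limma on the libraries of the count tests are the same fit, counted under both names. With at least 10 normalized counts in every library, Fmod and Podn left the test, so that 0 members were lower, and 831 genes were higher and 765 lower among 12054. In that setting the chondroitin and dermatan genes that rose numbered 1 and the keratan genes that fell 2. With no filter, 2 members were higher (Lum was added) and 2 protease genes rose. That protease count ran from 1 to 2 as single libraries were left out, where the filter asked for 2 libraries and Mmp3 entered. Without genes whose exon bases mostly lie inside other spans, 1 of the growth factor and receptor genes fell. Limma's treat called 847 genes higher. TMM scaling moved the median log2 fold change by 0.009. With the length of the canonical transcript, chosen after seeing the data, in place of merged exons, the per-kilobase ratio of Bgn to Dcn was 469 in place of 359 in WT and 9.14 in place of 7 in GαqKO, and that of Fmod to Dcn in WT 12.4 in place of 21. The deviations of same-numbered libraries from their group means had correlations of -0.05, -0.15 and -0.06. Those of libraries with unlike numbers ran from -0.07 to 0.12. With so few libraries these values cannot decide whether same-numbered cultures were handled together, and the main test used no pairing. With a replicate block 1421 genes were higher and 1478 lower, and Dcn (5.66), Bgn (0.02), Fmod (-5.18) and Podn (-5.97) kept their calls. Depth limits Lum and Prelp, at 0 to 4 normalized counts.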

Other observations

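Of 11 secreted proteoglycans of other families, 3 were tested. Vcan, which encodes versican, a large chondroitin sulphate proteoglycan of loose connective tissue, had 2577.1, 2562.6 and 3179.8 normalized counts in WT and 7151.6, 6240.2 and 5653.5 in GαqKO. It rose past both thresholds (log2 fold change 1.20, SE 0.087, adjusted p = 3.51e-08), and every GαqKO library lay above every WT library. Hspg2, which encodes the basement membrane proteoglycan perlecan, had 2579.9 ± 515.1 and 1645.2 ± 113.3 (SD, n = 3 each; log2 fold change -0.63, adjusted p = 9.72e-05), under the fold threshold. Spock3 did not pass (log2 fold change -0.63, adjusted p = 0.356). Acan, the large proteoglycan of cartilage, had at most 0.9 normalized counts in any library.

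Dmp1, an acidic protein of bone and dentin matrix and one of the cartilage and bone markers, was at 0 in all 3 WT libraries and had 24.4, 37 and 44.3 normalized counts in GαqKO, at least 11.7-fold higher against the floor of 3 (adjusted p = 3.3e-07). Gna14, a Gq-class gene, rose from 3.11 ± 3.13 to 53.3 ± 6.13 normalized counts (log2 fold change 4.13, adjusted p = 2.35e-05), and Gna15 was at 4.47 ± 4.39 and 4.4 ± 0.824. Dmp1 and Gna14 entered the test only through the GαqKO libraries, where they are high, so their calls carry no weight of their own. Gna14 was at 6.3, 0 and 3.1 in WT, near the floor, so its log2 fold change is not a measure of size.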
